A study of Mus musculus with 38 samples.

Results

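The collagen genes other than type IV were described in RNA-seq of mouse embryonic stem (ES) cells held in 5 culture conditions. They were taken as every row of the deposited gene table whose symbol reads Col, a number, a and a number, with the type IV genes left out, and came to 37 genes of 25965 in the table. Of these, 29 reached 0.5 reads per 1000000 (RPM) in at least 3 libraries and were tested, and 8 were not. The cells were E14, a male ES cell line of the 129/Ola background, grown without feeder cells on gelatin with leukaemia inhibitory factor (the L in each name). The 2i/L cells had serum-free N2B27 medium with 1 µM of a MEK inhibitor and 3 µM of the GSK3 inhibitor CHIR99021 for 8 days (3 libraries). MEKi/L cells had N2B27 with the MEK inhibitor alone for 8 days (3 libraries). GSK3i/L cells had N2B27 with CHIR99021 alone, for 24 days (2 libraries, replicates 2 and 3) or for 8 days (3 libraries). S/L cells stayed in medium with serum and no inhibitor for 8 days (3 libraries). Serum and inhibitors changed together between S/L and every other medium, so their effects cannot be told apart in comparisons against S/L.

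Collagens are triple helices of 3 chains that are secreted and assembled outside the cell. The fibrillar types (I, II, III, V, XI and others) form the banded fibres of connective tissue and cartilage, the FACIT types sit on the surface of those fibres, type VI builds beaded filaments, and types XV and XVIII (the multiplexins) lie at basement membranes. ES cells make basement membrane components, whereas fibrillar collagens are mainly made by mesenchymal cells such as fibroblasts. CHIR99021 blocks GSK3 and so stabilises β-catenin, and the MEK inhibitor blocks the MEK-ERK pathway.

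The values are log2 RPM as deposited, and a gene was called higher or lower where the Benjamini-Hochberg adjusted p of limma across 14980 tested genes was under 0.05 and the difference was at least 2-fold. Library depth was estimated from the deposited values and ran between 8046255 and 18401728 reads. The level of 3 reads, the limit a count of 0 allows, was read from the same values and ran between 0.190 and 0.461 RPM. Both ends of the depth range belong to 8-day GSK3i/L (replicates 3 and 1), where values were not whole multiples of 1 read, so depth and this level do not convert into each other. The deposited columns of S/L and 8-day GSK3i/L shared nearly 1 distribution of values, as matched columns would, and the other 8 columns did not, so comparisons across these sets were also run after quantile normalization of all 14 libraries. The labels call the libraries replicates without saying that they came from separate cultures, so p-values measure the spread between these libraries. A list of 10 pluripotency genes was above 5 RPM on average in all 5 conditions, with sums between 5949 and 7633 RPM. The libraries differed in how well long transcripts were covered. A length score, the mean log2 level of 37 genes with long transcripts minus that of 40 genes with short transcripts, was 0.10, 0.22 and 0.24 in 2i/L, 0.43, -2.09 and -1.67 in MEKi/L, -3.76 and -3.16 in GSK3i/L at 24 days, 0.12, -1.83 and -2.88 in GSK3i/L at 8 days, and -2.98, -2.63 and -2.54 in S/L (replicates in order). The first libraries of MEKi/L and of 8-day GSK3i/L stood apart from the others of their groups on this score, and results that lost a call without them or with the score as a covariate are given as such. Levels are not compared between genes, because transcript lengths were not used here.

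Promoter windows are shown for 5 members chosen for the levels described below, each the 250 bases before the gene's start in RefSeq (GRCm38.p6), with every CG dinucleotide in capitals, the site of DNA methylation. Windows were found for 30 of the 37 members. The first, Col3a1 (chr1:45311288-45311537, plus strand), codes for the single chain of type III collagen. Col6a1 (chr10:76726045-76726294, minus strand) codes for a type VI chain, and Col1a2 (chr6:4505368-4505617, plus strand) for the second chain of type I. Col5a1 (chr2:27886175-27886424, plus strand) and Col5a3 (chr9:20815068-20815317, minus strand) code for type V chains. The start in RefSeq differed from that of the deposited row for 2 of the 5. The Col1a2 window lies within its row (chr6:4504814-4541543), and the Col6a1 window overlaps its row (chr10:76708792-76726168).
Col3a1: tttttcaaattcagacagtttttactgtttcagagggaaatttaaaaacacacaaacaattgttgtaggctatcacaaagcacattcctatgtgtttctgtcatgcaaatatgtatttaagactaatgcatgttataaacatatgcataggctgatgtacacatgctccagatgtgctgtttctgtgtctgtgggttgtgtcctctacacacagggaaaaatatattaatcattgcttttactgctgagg
Col6a1: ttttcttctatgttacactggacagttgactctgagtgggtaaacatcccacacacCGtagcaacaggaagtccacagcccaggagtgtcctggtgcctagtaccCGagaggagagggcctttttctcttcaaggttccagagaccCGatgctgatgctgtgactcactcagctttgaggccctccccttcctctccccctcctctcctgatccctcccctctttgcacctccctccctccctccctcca
Col1a2: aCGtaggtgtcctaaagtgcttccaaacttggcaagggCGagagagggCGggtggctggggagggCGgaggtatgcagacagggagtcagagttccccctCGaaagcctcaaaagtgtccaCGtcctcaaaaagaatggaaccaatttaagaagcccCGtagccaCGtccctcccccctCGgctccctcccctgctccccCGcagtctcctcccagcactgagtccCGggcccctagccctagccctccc
Col5a1: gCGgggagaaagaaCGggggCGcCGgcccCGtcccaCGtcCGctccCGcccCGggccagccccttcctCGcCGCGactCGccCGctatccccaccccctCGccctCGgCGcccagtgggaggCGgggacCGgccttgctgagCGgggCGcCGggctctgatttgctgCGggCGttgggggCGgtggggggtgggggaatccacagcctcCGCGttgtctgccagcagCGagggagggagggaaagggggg
Col5a3: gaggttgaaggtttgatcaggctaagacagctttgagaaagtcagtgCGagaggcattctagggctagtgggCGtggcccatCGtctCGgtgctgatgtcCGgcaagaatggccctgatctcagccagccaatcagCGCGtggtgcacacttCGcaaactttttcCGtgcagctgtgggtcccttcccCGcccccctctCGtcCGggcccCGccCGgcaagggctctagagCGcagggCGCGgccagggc
The Col3a1 window held 0 CG dinucleotides with a G+C content of 35.2%, that of Col6a1 held 3 with 56.0%, and that of Col1a2 held 11 with 62.0%. The Col5a3 window held 17 with 62.8% and that of Col5a1 28 with 76.4%, the most of any member. Over 32851 windows of the same length the median was 6, 7.87% held none, 37.8% held 3 or fewer and 7.61% held 28 or more. The 33 member windows had a median of 8 and spanned this range, and the first 4 genes shown, all called higher in 8-day GSK3i/L than in S/L, ran between 0 and 28. The TCF/LEF core letters CTTTGAA, read on both strands, were in the windows of Col6a2, Col9a1, Col13a1 and Col15a1 and in 4.46% of all windows, and CTTTGAT was in that of Col9a2 and in 3.21% of all windows.

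**Figure D1:**
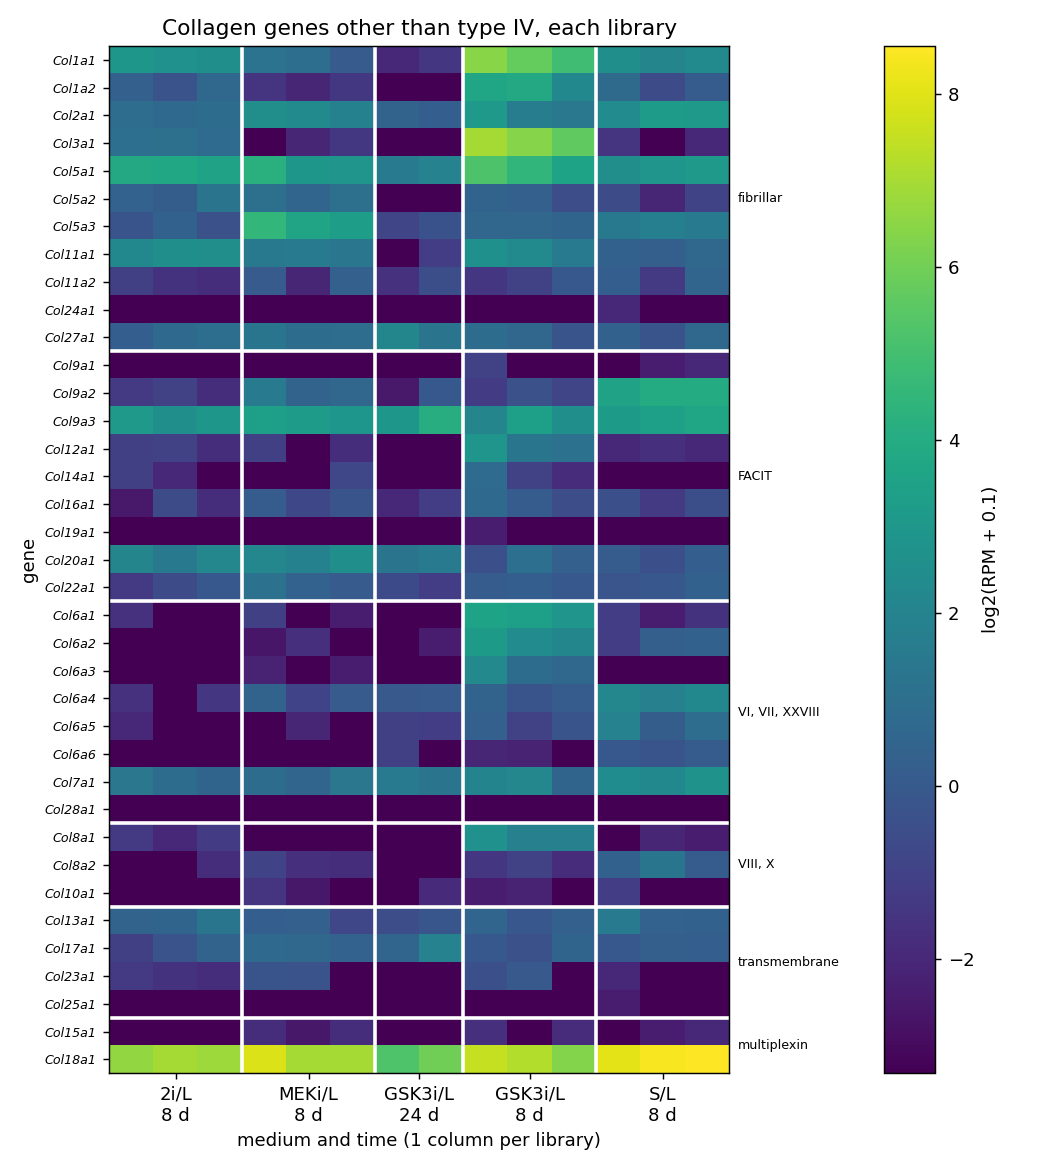
Level of each of the 37 collagen genes (rows, grouped by collagen class) in each of the 14 libraries (columns, grouped by medium and time), as log2(RPM + 0.1). Col18a1 was high in every library, Col3a1 and Col6a1 stood out in 8-day GSK3i/L, Col5a3 in MEKi/L and Col9a2 in S/L.

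In GSK3i/L at 8 days, against S/L, some collagens rose and others fell, and fibrillar, FACIT, type VI and short-chain members stood on both sides. Of the 29 tested members 11 were called higher, against 9.39% of all tested genes, and 6 lower, against 10.1% of all tested genes. The members called higher were Col1a1, Col1a2, Col3a1, Col5a1, Col5a2, Col11a1, Col6a1, Col6a2, Col6a3, Col8a1 and Col12a1, and those called lower were Col5a3, Col6a4, Col6a6, Col8a2, Col9a2 and Col18a1. The median log2 fold change was 0.16 over the tested members and 0.06 over all tested genes. Of the tested members, 6 reached 0.5 RPM in libraries of 1 condition only (Col6a1, Col6a3, Col8a1 and Col12a1 in 8-day GSK3i/L, Col6a6 and Col8a2 in S/L) and entered the test only because that condition was high.

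Col3a1, whose homotrimers form the thin fibres of soft tissue (chr1:45311538-45349706), had 124, 85.0 and 51.0 RPM in the 8-day GSK3i/L libraries, against 0.241, 0 and 0.155 RPM in the S/L libraries. All 3 GSK3i/L libraries were far above all 3 S/L libraries, which held 5 reads in all. The log2 fold change was 9.12 with a standard error (SE) of 0.56 (limma, adjusted p = 2.28e-07). In 2i/L Col3a1 had 1.91, 1.98 and 1.65 RPM, above S/L (3.65, SE 0.56, adjusted p = 9.49e-05) and below 8-day GSK3i/L (-5.47, SE 0.56, adjusted p = 1.51e-05). The 2i/L libraries lay between these 2 media without overlap. In MEKi/L it had 0, 0.144 and 0.284 RPM, and in GSK3i/L at 24 days no read in either library. The 24-day level was thus at least 352.4-fold lower than at 8 days, with 3 reads per library as the limit.

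Type I collagen, the main fibre of bone, skin and tendon, is made of chains from Col1a1 (chr11:94936224-94953042) and Col1a2 (chr6:4504814-4541543). Col1a1 had 86.1, 53.6 and 30.5 RPM in 8-day GSK3i/L, against 5.95, 4.11 and 5.12 RPM in S/L. The groups did not overlap, and the log2 fold change was 3.38 (SE 0.39, adjusted p = 3.44e-05). Col1a2 had 12.4, 14.3 and 4.63 RPM in 8-day GSK3i/L, against 1.62, 0.559 and 0.997 RPM in S/L, again with no overlap (3.27, SE 0.53, adjusted p = 4.59e-04). The 2i/L libraries had 7.77, 6.24 and 6.02 RPM of Col1a1 and 1.14, 0.711 and 1.52 RPM of Col1a2, and neither passed the test against S/L (log2 differences 0.41 and 0.15). In MEKi/L both chains fell below S/L. Col1a1 had 2.22, 1.87 and 0.948 RPM there (-1.66, SE 0.39, adjusted p = 0.00425), and Col1a2 had 0.254, 0.144 and 0.284 RPM (-2.15, SE 0.53, adjusted p = 0.00557). At 24 days of GSK3i/L Col1a1 was down to 0.152 and 0.264 RPM, 5 reads in all, and Col1a2 to 0 reads. For Col1a1 this was lower than at 8 days by a log2 difference of -8.02 (SE 0.44, adjusted p = 1.41e-07) and lower than in S/L by -4.64 (SE 0.44, adjusted p = 7.61e-06). Col1a2 at 24 days was at least 42.3-fold lower than at 8 days and at least 4.3-fold lower than in S/L.

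**Figure D2:**
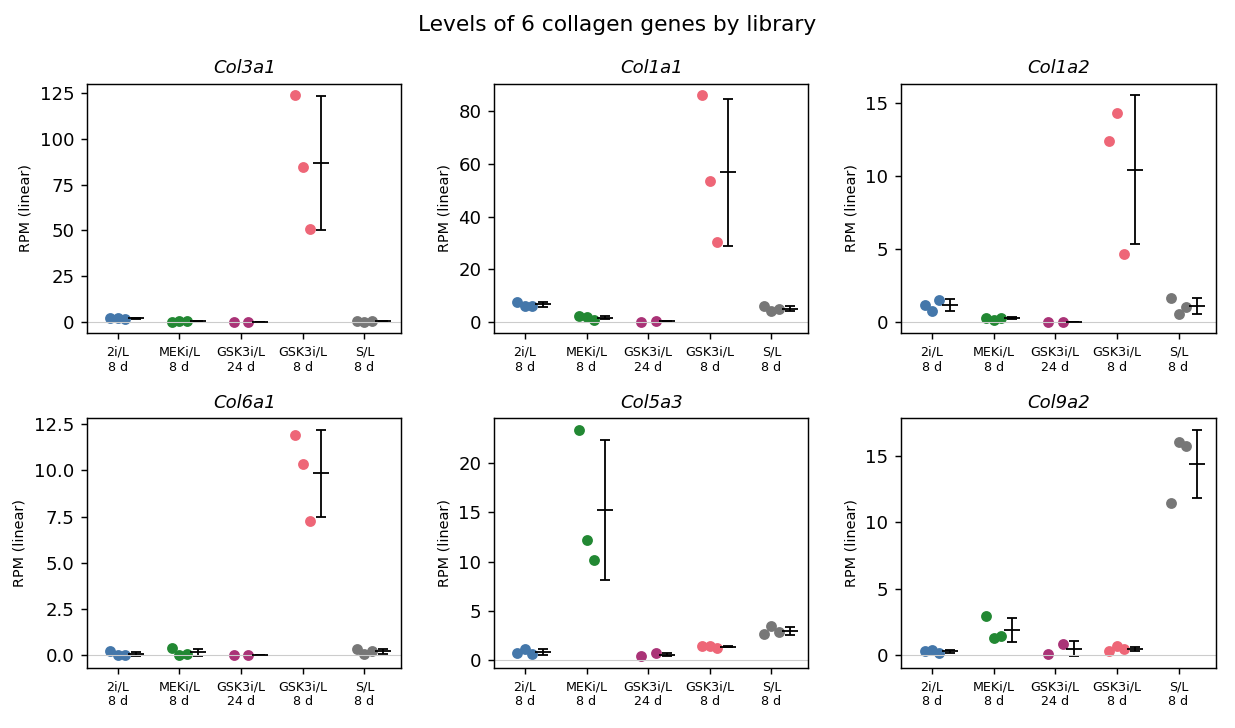
RPM (linear axes, 1 panel per gene) of Col3a1, Col1a1, Col1a2, Col6a1, Col5a3 and Col9a2 in each library, with the mean and SD of each group as a bar at its right. In the first 4 panels the 8-day GSK3i/L libraries lie above every other library, in the Col5a3 panel the MEKi/L libraries do, and in the Col9a2 panel the S/L libraries do.

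The 3 type V chains, minor components around which type I fibrils are nucleated, took different courses. Col5a1 (chr2:27886425-28039514) had 37.6, 22.4 and 11.8 RPM in 8-day GSK3i/L, against 5.81, 7.18 and 8.51 RPM in S/L. The lowest GSK3i/L library was still above the highest S/L one, and the log2 fold change was 1.60 (SE 0.39, adjusted p = 0.00829). With the length score as a covariate it was 0.96, under 2-fold. The 2i/L libraries had 14.4, 13.6 and 11.3 RPM and the MEKi/L libraries 18.3, 7.77 and 7.20 RPM of Col5a1, and neither was called against S/L. Col5a2 averaged 1.01 ± 0.36 RPM in 8-day GSK3i/L and 0.377 ± 0.21 RPM in S/L (SD, n = 3 each), and its call (1.57, SE 0.53, adjusted p = 0.0375) was lost without S/L replicate 2 (0.97, adjusted p = 0.15), without GSK3i/L replicate 1 (1.37, adjusted p = 0.13), without GSK3i/L replicate 2 (1.43, adjusted p = 0.11) and with the score as a covariate (1.31, adjusted p = 0.097). Col5a2 was higher than S/L also in MEKi/L (1.77 ± 0.35 RPM, 2.43, SE 0.53, adjusted p = 0.00264) and in 2i/L (1.50 ± 0.66 RPM, 2.12, SE 0.53, adjusted p = 0.0033), where the score as a covariate ended the call (1.48, adjusted p = 0.18).

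Col5a3 (chr9:20770050-20815067) had its highest levels in MEKi/L. It had 23.4, 12.2 and 10.1 RPM in the MEKi/L libraries, against 2.70, 3.44 and 2.85 RPM in the S/L libraries. Every MEKi/L library was above every library of the other media, and the difference from S/L was 2.26 (SE 0.35, adjusted p = 1.94e-04), from 8-day GSK3i/L 3.36 (SE 0.35, adjusted p = 1.34e-05). In 2i/L, which holds the same MEK inhibitor together with CHIR99021, Col5a3 had 0.762, 1.19 and 0.661 RPM, and in 24-day GSK3i/L 0.456 and 0.705 RPM. The 2i/L level was below MEKi/L by a log2 difference of -4.08 (SE 0.35, adjusted p = 7.64e-06) and below S/L by -1.82 (SE 0.35, adjusted p = 5.09e-04). The 8-day GSK3i/L libraries had 1.43, 1.41 and 1.30 RPM, below all S/L libraries (-1.11, SE 0.35, adjusted p = 0.0273). That call was lost at an adjusted p of 0.055, 0.082 and 0.057 without S/L replicate 1, 2 or 3, and of 0.061 and 0.062 without GSK3i/L replicate 1 or 2.

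Among the other fibrillar chains, Col11a1 (chr3:114030540-114220718), a type XI chain that sets fibril diameter in cartilage, had 4.57, 5.93 and 5.75 RPM in 2i/L and 6.15, 4.87 and 2.77 RPM in 8-day GSK3i/L, against 1.19, 1.13 and 1.47 RPM in S/L. Both were above all S/L libraries, by 2.10 (SE 0.48, adjusted p = 0.00179) and 1.80 (SE 0.48, adjusted p = 0.0125). The first call was lost with the score as a covariate (1.29, adjusted p = 0.16) and the second without GSK3i/L replicate 1 (1.55, adjusted p = 0.054). MEKi/L had 2.73, 2.95 and 2.46 RPM, also above all S/L libraries but not called (1.11, SE 0.48, adjusted p = 0.0764), and the 24-day GSK3i/L libraries 0 and 0.352 RPM. Col2a1 (chr15:97975602-98004695), the type II chain of cartilage, had its highest mean in serum medium. It had 1.83, 1.58 and 1.72 RPM in 2i/L, 5.77, 4.89 and 3.60 RPM in MEKi/L, 1.29 and 1.06 RPM in 24-day GSK3i/L and 8.25, 3.22 and 2.63 RPM in 8-day GSK3i/L, against 5.26, 9.49 and 8.16 RPM in S/L. Only 2i/L (-2.12, SE 0.38, adjusted p = 3.32e-04) and 24-day GSK3i/L (-2.67, SE 0.43, adjusted p = 4.73e-04) were called lower than S/L. Col11a2 passed no test in any of the 8 comparisons, and Col27a1, a fibrillar chain known from cartilage, was called only in 24-day GSK3i/L against S/L (3.31 ± 1.4 RPM at 24 days, n = 2, 1.13 ± 0.36 RPM in S/L, n = 3, 1.53, SE 0.46, adjusted p = 0.0242). That call was lost without 24-day replicate 2 (1.07, adjusted p = 0.23) and without S/L replicate 2 (1.25, adjusted p = 0.084).

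The type VI genes split by chain. Col6a1, Col6a2 and Col6a3 code for the classic heterotrimer of α1, α2 and α3, and Col6a4, Col6a5 and Col6a6 for chains that can take the place of α3. Col6a1 (chr10:76708792-76726168) had 11.9, 10.4 and 7.26 RPM in 8-day GSK3i/L, against 0.344, 0.0893 and 0.232 RPM in S/L, with no overlap (5.65, SE 0.73, adjusted p = 8.33e-05). Col6a2 (chr10:76595762-76623630) had 8.92, 5.15 and 4.24 RPM in 8-day GSK3i/L, against 0.344, 1.13 and 1.19 RPM in S/L (2.91, SE 0.59, adjusted p = 0.00264). Col6a3 averaged 2.63 ± 1.8 RPM in 8-day GSK3i/L with 0 reads in all 3 S/L libraries, at least 11.4-fold higher. All 3 chains were near the limit of counting in the other serum-free groups. Col6a1 had 3 reads in 2i/L, 7 in MEKi/L and 0 in 24-day GSK3i/L, Col6a2 had 0, 4 and 1, and Col6a3 had 0, 3 and 0. The Col6a2 level was also lower in 2i/L (at least 4.0-fold) and in MEKi/L (0.0931 ± 0.11 RPM, -2.87, SE 0.59, adjusted p = 0.0018) than in S/L (0.886 ± 0.47 RPM).

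The alternative chains had their highest mean levels in serum. Col6a4 averaged 0.164 ± 0.14 RPM in 2i/L, 0.883 ± 0.42 RPM in MEKi/L, 0.940 ± 0.040 RPM in 24-day GSK3i/L and 1.01 ± 0.26 RPM in 8-day GSK3i/L, against 4.18 ± 0.55 RPM in S/L, and was called lower in each (log2 fold changes -4.67, -2.37, -2.14 and -2.07). Col6a6 had 0 reads in both 2i/L and MEKi/L, 5 in 24-day GSK3i/L and 3 in 8-day GSK3i/L, against 0.873 ± 0.13 RPM in S/L, and each was called lower. Col6a5 had 2 reads each in 2i/L and MEKi/L and 0.366 ± 0.019 RPM in 24-day GSK3i/L, against 2.19 ± 1.4 RPM in S/L, and was called lower in all 3. In 8-day GSK3i/L it had 0.764 ± 0.37 RPM and was not called (-1.44, SE 0.61, adjusted p = 0.084). With 24-day replicate 3 left out, the 24-day calls of Col6a4, Col6a5 and Col6a6 were lost at an adjusted p of 0.078, 0.11 and 0.30, and those of Col6a4 and Col6a5 also without 24-day replicate 2 (0.08 and 0.085). Leaving out S/L replicate 1 ended the 24-day call of Col6a5 (adjusted p = 0.076), and leaving out S/L replicate 3 that of Col6a6 (0.061).

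Some members were chromosomal neighbours. On chromosome 10, Col6a2 and Col6a1 lay 85.2 kb apart on the same strand with no other gene of the table between them, and both rose in 8-day GSK3i/L against S/L. Both were also lower than in 8-day GSK3i/L in 2i/L, in MEKi/L and at 24 days, while Col6a2 and not Col6a1 was called lower than S/L in those 3 groups. Col6a1 held 8 reads over the S/L libraries, so a level below S/L could hardly be called. On chromosome 9, Col6a6, Col6a5 and Col6a4 lay in a row on 1 strand, with 30.6 and 28.8 kb between neighbours and no table gene between. On chromosome 1, Col3a1 and Col5a2 lay 24.6 kb apart on opposite strands. Both were called higher than S/L in 8-day GSK3i/L and in 2i/L, and both lower at 24 than at 8 days. In the other 5 comparisons at most 1 of the pair was called. Col5a2 and not Col3a1 was higher than S/L in MEKi/L, where Col3a1 had 5 reads, and lower than S/L at 24 days. Col3a1 held 5 reads over the S/L libraries too, so a level of Col3a1 below S/L could hardly be called. Col3a1 and not Col5a2 was lower in 2i/L and MEKi/L than in 8-day GSK3i/L, and higher in 2i/L than in MEKi/L.

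Further non-fibrillar members rose in 8-day GSK3i/L. Col8a1, a short-chain collagen of vessel walls and cornea, averaged 4.49 ± 1.6 RPM there, against 0.0786 ± 0.072 RPM (3 reads) in S/L (adjusted p = 4.93e-06). Its partner chain Col8a2 went the other way, with 0.283 ± 0.11 RPM in 8-day GSK3i/L and 1.51 ± 0.74 RPM in S/L (-2.39, SE 0.59, adjusted p = 0.00817). Col8a2 was also called lower than in S/L in MEKi/L (0.283 ± 0.14 RPM), in 2i/L (3 reads) and in 24-day GSK3i/L (0 reads, at least 6.1-fold). Col12a1, a FACIT chain found on type I fibres, had 7.25, 2.37 and 2.10 RPM in 8-day GSK3i/L, against 0.154, 0.215 and 0.155 RPM in S/L (4.26, SE 0.65, adjusted p = 3.35e-04). Col14a1, another FACIT chain, did not enter the test and had 1.68, 0.403 and 0.182 RPM in 8-day GSK3i/L and 0 reads in S/L.

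**Figure D3:**
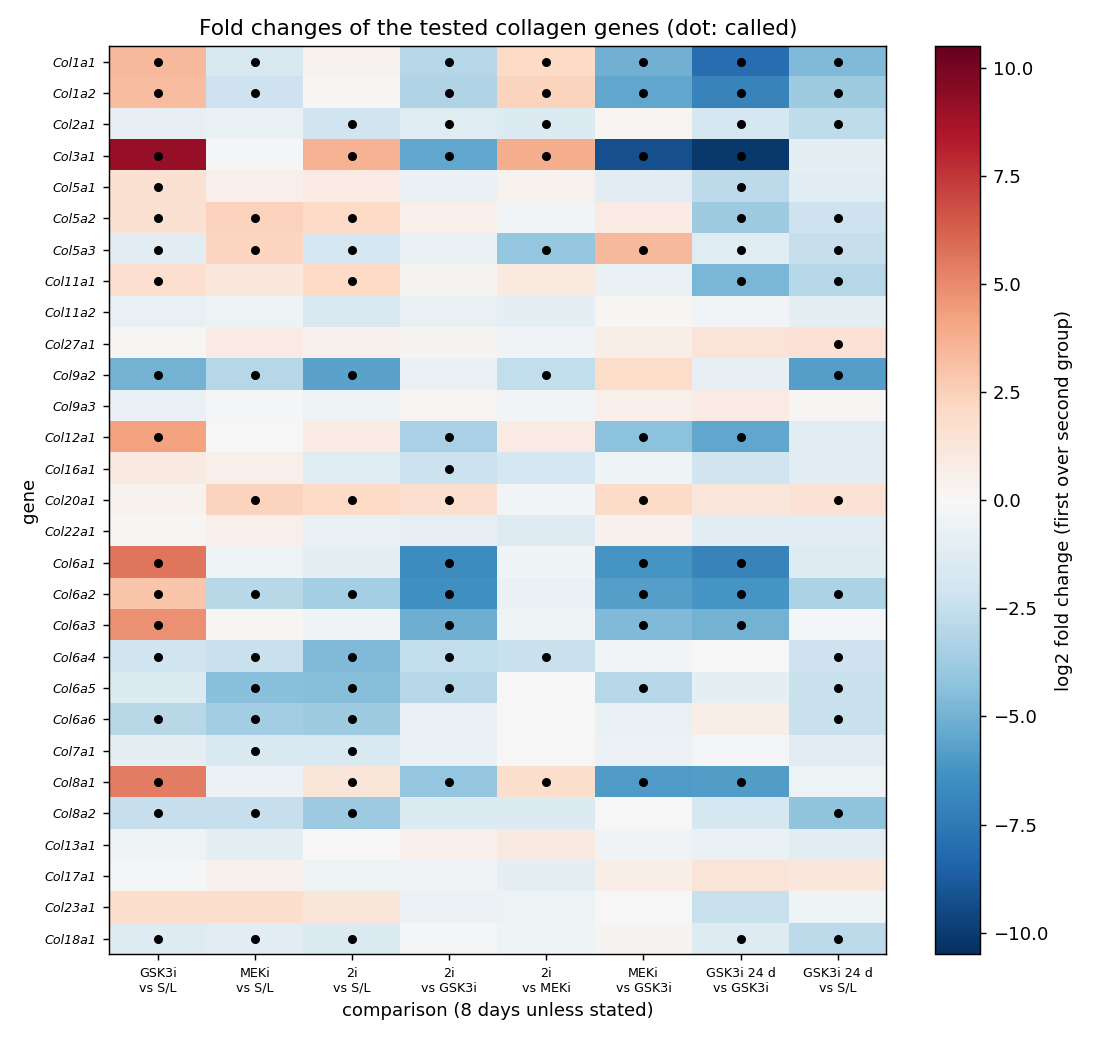
Log2 fold change of the 29 tested collagen genes (rows) in 8 comparisons (columns, the first-named group over the second), with a dot on each called difference. Col3a1 runs between 9.12 in 8-day GSK3i/L against S/L and -10.11 in 24-day against 8-day GSK3i/L, where the 24-day group has 0 reads and the value depends on how 0 was set.

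A set of collagens was highest in serum medium. Col9a2 (chr4:121039385-121055322), a chain of the FACIT type IX that decorates cartilage fibrils, had 0.305, 0.395 and 0.198 RPM in 2i/L, 2.92, 1.30 and 1.42 RPM in MEKi/L, 0.0760 and 0.881 RPM in 24-day GSK3i/L and 0.337, 0.660 and 0.461 RPM in 8-day GSK3i/L, against 11.5, 16.0 and 15.7 RPM in S/L. No serum-free library reached any S/L library, with log2 fold changes of -5.63 (SE 0.68), -3.02 (SE 0.68), -5.78 (SE 0.76) and -4.93 (SE 0.68) and adjusted p-values of 1.32e-05, 0.00335, 1.01e-04 and 1.48e-04 in the same order. Col9a3 (chr2:180597790-180622189), which codes for another chain of the same trimer, did not follow it. It had 8.23, 5.85 and 7.67 RPM in 2i/L, 10.47, 9.43 and 7.39 RPM in MEKi/L, 7.67 and 17.0 RPM in 24-day GSK3i/L and 4.18, 10.47 and 5.92 RPM in 8-day GSK3i/L, against 8.75, 10.3 and 12.9 RPM in S/L, and passed no test. Its row shares 234 bases with Tcfl5 on the opposite strand, and Col9a1, the third chain, had at most 6 reads in any group.

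Col18a1 (chr10:77052178-77166548), the multiplexin of basement membranes whose C-terminal fragment is endostatin, had 100.4, 122 and 114 RPM in 2i/L, 240.5, 122 and 126 RPM in MEKi/L, 39.1 and 63.4 RPM in 24-day GSK3i/L and 181, 144 and 82.4 RPM in 8-day GSK3i/L, against 273, 349 and 377 RPM in S/L. Every serum-free library was below every S/L library. The log2 fold change against S/L was -1.56 in 2i/L (SE 0.31, adjusted p = 6.78e-04), -2.73 in 24-day GSK3i/L (SE 0.35, adjusted p = 7.45e-05) and -1.35 in 8-day GSK3i/L (SE 0.31, adjusted p = 0.0055). In MEKi/L it was -1.09 (SE 0.31, adjusted p = 0.0124), and fell to 2-fold or less without S/L replicate 3 (-1.0) and without MEKi/L replicates 2 or 3 (-0.92 and -0.94). The Col18a1 row shares 8825 bases with Slc19a1 on the opposite strand. Col7a1 (chr9:108953586-108984875), the anchoring fibril of skin, had 2.51, 1.74 and 1.32 RPM in 2i/L and 1.71, 1.37 and 2.56 RPM in MEKi/L, against 5.42, 4.55 and 6.47 RPM in S/L. Both were called lower (-1.60, SE 0.43, adjusted p = 0.00536 and -1.58, SE 0.43, adjusted p = 0.0102), while 8-day GSK3i/L with 4.01, 4.44 and 1.30 RPM (-0.93, SE 0.43, adjusted p = 0.111) and 24-day GSK3i/L with 2.89 and 2.29 RPM (-1.08, SE 0.48, adjusted p = 0.118) were not.

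In MEKi/L and in 2i/L more members fell than rose against S/L. In MEKi/L 3 members were higher (Col5a2, Col5a3 and Col20a1), against 15.7% of all tested genes, and 10 were lower, against 9.7% of all tested genes. In 2i/L 5 were higher (Col3a1, Col5a2, Col8a1, Col11a1 and Col20a1), against 23.7% of all tested genes, and 10 lower, against 18.5% of all tested genes. Col6a6 and Col8a2, lower in both media, entered the test only because S/L was high. The median log2 fold change over the tested members was -0.52 in MEKi/L and -0.55 in 2i/L, against medians of 0.17 and 0.28 over all tested genes. Setting genes with 0 reads in a group at their bound moved the MEKi/L median to -0.22. The 2i/L call of Col8a1 rested on 0.265 ± 0.093 RPM in 2i/L and 0.0786 ± 0.072 RPM in S/L, and was lost under 8 of the other settings, among them the score as a covariate (0.93, adjusted p = 0.45), without 2i/L replicate 1 (adjusted p = 0.099) or 3 (0.11) and without S/L replicate 1 (0.098) or 3 (0.08). Col20a1, a FACIT chain, averaged 3.77 ± 0.95 RPM in 2i/L (2.05, SE 0.39, adjusted p = 5.13e-04) and 4.64 ± 1.2 RPM in MEKi/L (2.36, SE 0.39, adjusted p = 3.66e-04), against 0.909 ± 0.23 RPM in S/L, with no overlap. In 8-day GSK3i/L it had 1.23 ± 0.62 RPM and was not called (0.35, SE 0.39, adjusted p = 0.517).

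Adding the MEK inhibitor to GSK3i/L asks what remains of the GSK3i/L collagens in 2i/L. Against 8-day GSK3i/L, 12 tested members were lower in 2i/L, against 6.59% of all tested genes, and 1 was higher (Col20a1), against 9.84% of all tested genes. The lower ones included all 3 classic type VI chains, both type I chains and Col3a1. Col6a1, Col6a3, Col8a1 and Col12a1, all among the lower, entered the test only because 8-day GSK3i/L was high. Col1a1 differed by -2.97 (SE 0.39, adjusted p = 1.02e-04), Col1a2 by -3.12 (SE 0.53, adjusted p = 7.36e-04) and Col6a1 by -6.61 (SE 0.73, adjusted p = 2.49e-05). Col6a2 had 0 reads in 2i/L and was at least 27.5-fold lower, and Col6a3, also with 0 reads, at least 11.8-fold lower. Col5a1 (13.1 ± 1.6 RPM in 2i/L, 23.9 ± 13 RPM in 8-day GSK3i/L) and Col11a1 were not called (-0.72, SE 0.39, adjusted p = 0.176 and 0.30, SE 0.48, adjusted p = 0.649). The calls of Col2a1 (-1.27) and Col16a1 (-2.27) were lost without GSK3i/L replicate 1 (-0.77, adjusted p = 0.073 and -1.93, adjusted p = 0.055). They were also lost without 2i/L replicate 1 (adjusted p = 0.052 and 0.10) and without 2i/L replicate 3 (0.062 and 0.061), that of Col2a1 without 2i/L replicate 2 (0.075) and that of Col16a1 without GSK3i/L replicate 2 (0.056).

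Between single inhibitors, 9 tested members were lower in MEKi/L than in 8-day GSK3i/L, against 4.17% of all tested genes, and Col5a3 and Col20a1 were higher, against 8.64% of all tested genes. The lower ones again held Col6a1, Col6a3, Col8a1 and Col12a1, which entered the test only because 8-day GSK3i/L was high. Col1a1 differed by -5.04 (SE 0.39, adjusted p = 1.12e-06) and Col3a1 by -9.26 (SE 0.56, adjusted p = 2.51e-07), with no overlap for either. Against MEKi/L, 4 tested members were higher in 2i/L (Col1a1, Col1a2, Col3a1 and Col8a1), against 3.2% of all tested genes, and 4 were lower (Col2a1, Col5a3, Col6a4 and Col9a2), against 5.29% of all tested genes. Col1a1 was higher by 2.07 (SE 0.39, adjusted p = 0.00337) and Col3a1 by 3.79 (SE 0.56, adjusted p = 6.00e-04). The other 2 calls upwards were lost in some refits: Col1a2 (2.30) without MEKi/L replicate 2 (2.00, adjusted p = 0.057) or 2i/L replicate 3 (2.05, adjusted p = 0.056), and Col8a1 (1.89) without MEKi/L replicate 2 (adjusted p = 0.069) or 2i/L replicates 1 or 3 (0.078 and 0.088) and with the score as a covariate (1.73, adjusted p = 0.081). Among the lower ones Col2a1 (-1.45) was lost without MEKi/L replicate 2 (adjusted p = 0.078) or any 1 of the 2i/L libraries (0.055, 0.08 and 0.066). Col9a2 (-2.60) was lost without MEKi/L replicate 3 (0.056), 2i/L replicate 1 (0.058) or 2i/L replicate 3 (0.088). With quantile normalization the calls of Col2a1 (-1.24, adjusted p = 0.058) and Col6a4 (-1.79, adjusted p = 0.061) were lost.

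Most of the fibrillar and classic type VI chains were lower after longer culture in GSK3i/L. At 24 days, against 8 days, 14 tested members were lower, against 7.1% of all tested genes, and 0 higher, against 2.87% of all tested genes (4 were higher at an unadjusted p under 0.05). They were Col1a1, Col1a2, Col2a1, Col3a1, Col5a1, Col5a2, Col5a3, Col11a1, Col6a1, Col6a2, Col6a3, Col8a1, Col12a1 and Col18a1. Of these, Col6a1, Col6a3, Col8a1 and Col12a1 entered the test only because 8-day GSK3i/L was high. The median log2 fold change was -1.82 over the tested members, -1.29 with groups at 0 reads set at their bound, and -0.19 over all tested genes. Col5a1 had 2.81 and 3.79 RPM at 24 days, against 37.6, 22.4 and 11.8 RPM at 8 days (-2.72, SE 0.44, adjusted p = 0.00235), and with the score as a covariate the difference was -1.67. Col11a1 differed by -4.81 (SE 0.53, adjusted p = 1.62e-04). Members with 0 reads at 24 days were at least 39.9-fold (Col6a1), 18.2-fold (Col8a1), 15.8-fold (Col12a1), 10.7-fold (Col6a3) and 4.1-fold (Col5a2) lower than at 8 days. The 24-day libraries had the lowest length scores of the series, and with the score as a covariate 11 of the members were called lower.

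The 24-day calls of Col18a1 (-1.37), Col2a1 (-1.82) and Col5a3 (-1.29) against 8 days depended on the setting. All 3 were lost with the score as a covariate (-0.60, -1.07 and -0.83), without 24-day replicate 2 (adjusted p = 0.20, 0.077 and 0.26), without 24-day replicate 3 (0.055, 0.099 and 0.086) and without 8-day replicate 1 (0.076, 0.054 and 0.11). Those of Col18a1 and Col5a3 were also lost without 8-day replicate 2 (0.052 and 0.072). Quantile normalization (-1.03, adjusted p = 0.078) and log2(RPM + 0.5) (adjusted p = 0.075) ended the call of Col5a3 too. In a limma fit of the 2 groups alone all 3 calls were lost (adjusted p = 0.16, 0.16 and 0.18). Against S/L, 13 tested members were lower at 24 days, against 10.3% of all tested genes, and 2 higher (Col20a1 and Col27a1), against 7.1% of all tested genes. Among the lower, Col6a6 and Col8a2 entered the test only because S/L was high. Col20a1 averaged 2.64 ± 0.51 RPM at 24 days (n = 2) against 0.909 ± 0.23 RPM in S/L (n = 3, 1.56, SE 0.44, adjusted p = 0.0177), and lost the call without 24-day replicate 2 or 3 (0.053 and 0.14) or S/L replicate 2 (0.062). Col5a2 had 0 reads at 24 days, at least 1.5-fold lower than S/L, and lost its call without 24-day replicate 2 or 3 (0.09 and 0.072) or S/L replicate 1 or 3 (0.058 each). Col11a1 was lower than S/L by -3.01 (SE 0.53, adjusted p = 0.00102). The 2 comparisons of 24 days share the 24-day libraries, and all comparisons against S/L share the S/L libraries, so their calls are not independent of each other.

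The rise in 8-day GSK3i/L was uneven across its libraries. Of the 11 members called higher against S/L, replicate 1 was the highest library for 10 and replicate 3 the lowest for 11, with the highest library 1.64 to 3.46 times the lowest. Summed over the 36 members other than Col18a1, the libraries had 338, 235 and 140.5 RPM in 8-day GSK3i/L, against 69.3, 71.5 and 81.2 RPM in S/L. In the 8-day GSK3i/L sums Col3a1 gave 124, 85.0 and 51.0 RPM and Col1a1 86.1, 53.6 and 30.5 RPM. With Col18a1 included, the groups overlapped, at 519, 379 and 223 RPM in 8-day GSK3i/L and 342, 420 and 458 RPM in S/L. The length score fell in the same order within 8-day GSK3i/L, as did the estimated depth (18401728, 13116780 and 8046255 reads). The part of either in the spread was not tested. The 2i/L libraries, with scores of 0.10 to 0.24, had sums of 54.3, 48.8 and 52.5 RPM. With the score as a covariate, Col3a1 in 8-day GSK3i/L differed from S/L by 9.24, Col1a1 by 2.92 and Col6a1 by 5.05. The calls of Col5a1 (0.96) and Col5a2 (1.31, limma adjusted p = 0.097) were lost in that fit. The part of the score in the sums was not tested.

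**Figure D4:**
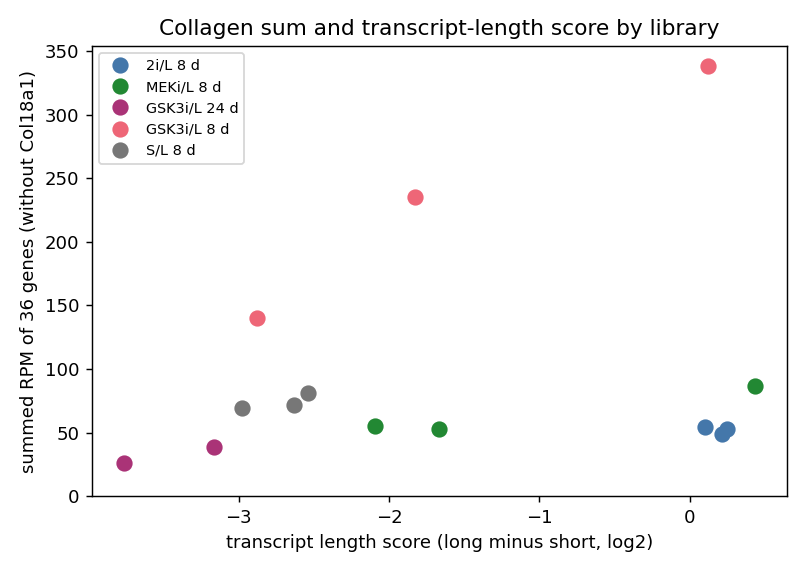
Summed RPM of the 36 collagen genes other than Col18a1 (vertical axis) against the transcript length score (horizontal axis, log2, long minus short), 1 point per library, coloured by medium and time. The 8-day GSK3i/L libraries (140.5 to 338 RPM) lie above all others, and the 2i/L libraries have 48.8 to 54.3 RPM. With Col18a1 included, the sums of 8-day GSK3i/L and S/L overlap. The part of the score in the sums was not tested.

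Summed markers of mesenchymal and of mesoderm cells were higher in 8-day GSK3i/L than in S/L, but not there alone. Both sums were above S/L in 2i/L too, and the mesenchymal sum in MEKi/L, where as in 2i/L most of it was Vim. Of the 12 mesenchymal markers, 4 averaged at least 5 RPM in 8-day GSK3i/L, 1 in 2i/L, 1 in MEKi/L, 2 in 24-day GSK3i/L and 2 in S/L. The summed level of 12 fibroblast and mesenchyme markers without collagens was 201 to 351 RPM in 2i/L, 205 to 363 RPM in MEKi/L, 122 to 142 RPM in 24-day GSK3i/L and 346 to 686 RPM in 8-day GSK3i/L, against 83.9 to 123 RPM in S/L. Most of it was Vim, an intermediate filament gene that ES cells also express, with means of 277, 256, 121 and 450 RPM in these media, against 91.4 RPM in S/L. In 8-day GSK3i/L 1 of the 12 markers was at 0 in every library (Fap), and Cdh11, a mesenchymal cadherin, averaged 11.7 ± 3.6 RPM, Lum 1.04 ± 0.14 RPM, Postn 0.830 ± 0.69 RPM and Dcn 0.0470 ± 0.081 RPM. In S/L 4 were at 0 (Lum, Postn, Prrx1 and Fap), and in MEKi/L and 24-day GSK3i/L 6 each, Dcn, Lum, Postn and Prrx1 among them. A list of 10 mesoderm markers summed to 12.7 to 13.1 RPM in 2i/L, 6.44 to 9.20 RPM in MEKi/L, 14.2 to 18.5 RPM in 24-day GSK3i/L and 17.5 to 26.8 RPM in 8-day GSK3i/L, against 4.72 to 9.27 RPM in S/L, so it was above S/L also at 24 days. Of these markers 5 were at 0 in every 8-day GSK3i/L library (Mesp1, Msgn1, Hand1, Foxf1a and Meox1) and 2 in S/L (Msgn1 and Foxf1a). Neural crest and neural markers were lower in 8-day GSK3i/L (72.6 to 125 RPM) than in S/L (145 to 193 RPM), chondrocyte and osteoblast markers were slightly higher (7.01 to 7.27 RPM in 8-day GSK3i/L, 3.76 to 6.80 RPM in S/L) and endoderm markers overlapped. The chondrocyte and osteoblast sum was highest in MEKi/L (12.9 to 17.1 RPM), with 6.55 to 9.46 RPM in 2i/L and 5.77 to 7.31 RPM in 24-day GSK3i/L. The neural sum was 139 to 176 RPM in 2i/L, 162 to 295 RPM in MEKi/L and 40.8 to 41.5 RPM in 24-day GSK3i/L. The part of these markers in the collagen levels was not tested, and in bulk RNA more cells of a type and more RNA per cell cannot be told apart.

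The genes that act on collagens were taken from 6 lists. Of 20 tested genes for folding and modification in the endoplasmic reticulum, 2 were higher and 2 lower in 8-day GSK3i/L than in S/L, against 9.39% and 10.1% of all tested genes, so that these counts stood near the background. The lysyl hydroxylase gene Plod1 rose (33.7 ± 5.7 RPM in 8-day GSK3i/L, 15.9 ± 1.3 RPM in S/L, 1.07, adjusted p = 0.0017), as did Sec23a, of the vesicle coat that carries procollagen out (91.4 ± 25 RPM in 8-day GSK3i/L, 43.0 ± 8.2 RPM in S/L, 1.06, adjusted p = 0.00382). Leprel4, also named P3h4, and the chaperone gene Fkbp10, which both act in lysyl hydroxylation of collagen, fell. Leprel4 had 5.83 ± 0.74 RPM in 8-day GSK3i/L and 33.4 ± 9.9 RPM in S/L (-2.48, adjusted p = 2.81e-05), and Fkbp10 12.6 ± 2.9 RPM in 8-day GSK3i/L and 31.1 ± 4.3 RPM in S/L (-1.32, adjusted p = 0.0041). Of 9 tested processing and crosslinking genes 2 rose and 1 fell, against the same 9.39% and 10.1% of all tested genes. The crosslinking enzyme gene Loxl2 had 13.0 ± 4.9 RPM in 8-day GSK3i/L and 4.07 ± 0.26 RPM in S/L (1.62, adjusted p = 4.30e-04), and the procollagen N-proteinase gene Adamts14 had 2.59 ± 0.055 RPM in 8-day GSK3i/L and 18.1 ± 1.4 RPM in S/L (-2.80, adjusted p = 3.43e-06).

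Of 11 tested matrix partners of collagen fibrils, 9 were higher in 8-day GSK3i/L than in S/L and 0 lower, against 9.39% and 10.1% of all tested genes. The list has 18 genes, of which 7 did not enter the test and 2 (Lum and Tnc) entered only because 8-day GSK3i/L was high, so the count describes the genes that passed and not the list. Tenascin C (Tnc) averaged 14 ± 8.1 RPM in 8-day GSK3i/L and had 3 reads in S/L. Fibrillin 2 (Fbn2) had 10.3 ± 6.3 RPM in 8-day GSK3i/L and 0.149 ± 0.13 RPM in S/L (5.83, SE 0.62, adjusted p = 1.87e-05), Tgfbi 18.3 ± 7.1 RPM in 8-day GSK3i/L and 4.12 ± 1.3 RPM in S/L (2.12, SE 0.34, adjusted p = 4.58e-04). At 24 days, against 8 days, 9 of the 11 were lower and 0 higher, against 7.1% and 2.87% of all tested genes. Of 6 tested collagen receptors 1 was lower in 8-day GSK3i/L than in S/L and 0 higher, against 10.1% and 9.39% of all tested genes. Ddr1, a receptor kinase for fibrillar collagen, had 14 ± 4.7 RPM in 8-day GSK3i/L and 48.8 ± 8.7 RPM in S/L (-1.85, SE 0.25, adjusted p = 1.40e-04). Of 7 tested collagen breakdown genes, 1 was higher, the metalloproteinase inhibitor Timp1 (1.24, SE 0.15, adjusted p = 3.85e-05), and 1 lower, against 9.39% and 10.1% of all tested genes.

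Of 12 tested regulators of collagen genes and mesenchymal factors, 4 were higher and 1 lower in 8-day GSK3i/L than in S/L, against 9.39% and 10.1% of all tested genes. Of the 19 listed genes 7 were outside the test. The mesenchymal homeobox gene Prrx1 had 6.91 ± 1.6 RPM in 8-day GSK3i/L and 0 reads in S/L, at least 30.1-fold higher, and entered the test only through that group. Tgfb1, a growth factor that induces collagen genes in fibroblasts, had 17.4 ± 5.3 RPM in 8-day GSK3i/L and 5.38 ± 0.86 RPM in S/L (1.65, SE 0.28, adjusted p = 7.07e-04), and Zeb1 had 10.1 ± 2.7 RPM in 8-day GSK3i/L and 4.70 ± 0.72 RPM in S/L (1.07, SE 0.28, adjusted p = 0.0105). Ctgf, a matrix-associated signalling protein gene, had 14.9 ± 1.0 RPM in 8-day GSK3i/L and 41.8 ± 1.3 RPM in S/L (-1.49, SE 0.18, adjusted p = 4.70e-05). At 24 days, against 8 days, 9 of the 12 were lower and 0 higher, against 7.1% and 2.87% of all tested genes. Tgfb1 averaged 14.1 ± 0.089 RPM at 24 days.

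The type IV genes, which code for the network collagen of basement membranes, did not all go with the fibrillar ones. Col4a1 averaged 7.95 ± 0.26 RPM in 2i/L, 125.7 ± 61 RPM in MEKi/L, 20.9 ± 7.0 RPM in 24-day GSK3i/L and 37.6 ± 22 RPM in 8-day GSK3i/L, against 21.6 ± 2.6 RPM in S/L, and was called higher than S/L in MEKi/L (2.44, SE 0.36, adjusted p = 1.38e-04) and not in 8-day GSK3i/L (0.65, SE 0.36, adjusted p = 0.179). Col4a5 and Col4a6 were higher in 8-day GSK3i/L than in S/L (4.10, SE 0.56, adjusted p = 1.25e-04 and 4.35, SE 0.54, adjusted p = 6.20e-05). Both reached 0.5 RPM in libraries of 8-day GSK3i/L only and entered the test only because that condition was high.

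The members with few reads were as follows. The 8 members outside the test (Col9a1, Col10a1, Col14a1, Col15a1, Col19a1, Col24a1, Col25a1 and Col28a1) had at most 1.68 RPM in any library, and Col28a1 had no read in any. The transmembrane collagens Col13a1, Col17a1, of the hemidesmosome, and Col23a1 were tested and passed in none of the 8 comparisons, nor did the FACIT gene Col22a1. Col17a1 had its highest mean in 24-day GSK3i/L, 2.58 ± 1.7 RPM, against 0.943 ± 0.33 RPM in 8-day GSK3i/L (1.33, SE 0.53, adjusted p = 0.0887), and the 24-day libraries differed from each other, with 1.37 and 3.79 RPM.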

How the data were processed

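RNA-seq values of 14 libraries were used, and the bisulfite libraries of the series were not used here. The table was deposited by the authors as log2 RPM per gene from SeqMonk, per the file headers. Per the submitters' processing notes, Trim Galore 0.6.5, HISAT2 and GRCm38 were used, and whether counting used strand is not given in the sources used here, so reads of genes overlapping on opposite strands cannot be told apart. In 8 deposited log2 columns the values were whole multiples of 1 read (at least 99.96% within 0.02 of a read), with 0 reads written as 0.9 read. The 6 columns of S/L and 8-day GSK3i/L held nearly 1 common distribution and are called matched here from their values alone, since no label or header records the step (largest difference above 2 RPM 0.0793 log2), so the 8-day GSK3i/L against S/L comparison is within matched columns and every other comparison crosses the 2 treatments or lies among the plain columns. In the matched columns low read numbers were recovered from the order of distinct low values.

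The deposited log2 values were fitted with limma 3.58.1 in R 4.3.3 (intensity trend, robust), all 14 libraries in 1 fit with group as the only term, over 14980 genes with at least 0.5 RPM in 3 libraries. On simulated data the procedure was tested with known changes. Means and SDs are on the RPM scale and fold changes on the log2 scale. Where a group had 0 reads, a fold is a bound against 3 reads per library, which covers counting error only. The members and lists were chosen with earlier results of these data known. Members averaging at least 5 RPM in any group are given per library, or by the reads of a group where it held under 10, and in each list the called genes with the 4 largest changes in 8-day GSK3i/L against S/L could be named. Other members were described by means and calls, Col5a2, Col6a3 to Col6a6, Col8a1, Col8a2, Col12a1, Col14a1, Col17a1, Col20a1 and Col27a1 among them, some with single library values that were chosen after they were seen. List symbols were matched through RefSeq synonyms, and 25035 of 25965 gene IDs were in the gene name table. The alternatives tried were other scalings, filters, a pseudocount, a plain variance model, fits of 2 groups, the replicate block, the length score (long minus short transcripts) as a covariate and leaving out libraries.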

Additional observations from a re-analysis of the deposited data

Results flagged for a closer look

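In GSK3i/L, 5 members were called higher than S/L at 8 days and lower than the same S/L libraries at 24 days, and the difference between the times was itself called by limma. The log2 fold change of 24 against 8 days was -8.02 for Col1a1, -6.99 for Col1a2, -6.22 for Col6a2, -4.81 for Col11a1 and -3.71 for Col5a2. The 24-day libraries held 5, 0, 1, 4 and 0 reads of these genes in that order, so the fitted sizes depend on the value that stands for 0 reads. Both calls of Col5a2 against S/L were lost in some refits, at 8 days without S/L replicate 2 (0.97, limma adjusted p = 0.15) and at 24 days without S/L replicate 1 (adjusted p = 0.058). The 8-day call of Col11a1 was lost without GSK3i/L replicate 1 (1.55, adjusted p = 0.054). Groups of 2 or 3 libraries were not screened for single outlying libraries.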

How the results depend on the processing

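Of 232 pairs of a tested member and a comparison, 106 were called. Over the 24 other settings run, 82 of these kept the call in every setting that included them, 24 lost it in at least 1 and 0 changed direction, and 29 of the 126 uncalled pairs were called in at least 1. The median of all tested genes lay over 0.1 log2 from 0 in 5 of the 8 comparisons. For 2i/L against S/L, 2 members rather than 5 were higher with the score as a covariate. For 2i/L against MEKi/L, 2 rather than 4 were higher with log2(RPM + 0.5) and 2 rather than 4 lower with quantile normalization. For 24 against 8 days of GSK3i/L, 1 rather than 0 was higher with quantile normalization, median centring, log2(RPM + 0.5) and without both first libraries of MEKi/L and 8-day GSK3i/L, in each case Col27a1.

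Leaving out 1 library at a time gave the following counts of members higher and lower. They were 9 to 12 and 5 to 6 for 8-day GSK3i/L against S/L, 3 to 4 and 9 to 10 for MEKi/L against S/L, 4 to 5 and 10 to 11 for 2i/L against S/L. For 2i/L they were 1 and 10 to 14 against 8-day GSK3i/L, and 2 to 4 and 2 to 4 against MEKi/L. For MEKi/L against 8-day GSK3i/L they were 2 and 9 to 11. For GSK3i/L at 24 days they were 0 to 1 and 11 to 17 against 8 days, and 0 to 2 and 9 to 13 against S/L. The upward calls against S/L, Col20a1 and Col27a1, numbered 0 without S/L replicate 2 or 24-day replicate 2. A group left with 1 library was assumed to vary like the others.

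The replicate numbers do not mark shared cultures in the labels, and deviations of same-numbered libraries correlated between -0.31 and 0.67. With the replicate block, 12 rather than 14 members were lower at 24 than at 8 days, Col18a1 and Col5a3 being lost, and the other 15 counts stayed the same. Genes under a few reads per library limit the precision: 3 reads stand for up to 0.461 RPM.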
